A study of Mus musculus with 16 samples.

Results

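Oocytes that had lost the histone deacetylase Hdac1 were compared with oocytes that had lost its paralogue Hdac2, as the 4 arrays of each single knockout, 8 of the 16 arrays of the study. RNA was taken from pools of 80 oocytes of mice 12 days old on a C57BL/6 background and was amplified before hybridisation to Affymetrix Mouse 1.1 ST arrays. In both groups Cre driven by the Zp3 promoter, on in oocytes once they grow, was combined with conditional alleles of Hdac1 or of Hdac2, so Cre was shared by the 2 groups. The other 8 arrays were 4 of wild type oocytes and 4 of oocytes with conditional knockout of both genes, and they are used here as side values. The labels do not say whether the wild type carried Cre or conditional alleles. Every difference below is the Hdac2 knockout minus the Hdac1 knockout, so a positive value is a higher signal in the Hdac2 knockout.

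Histone deacetylases remove acetyl groups from histone tails and other proteins, and Hdac1 and Hdac2 are close class I paralogues that sit as catalytic subunits in the same co-repressor complexes, among them NuRD, Sin3, CoREST and MiDAC. In many cells either enzyme can stand in for much of the work of the other, and loss of both has far larger effects than loss of one. The growing oocyte builds up the maternal mRNA store that later carries the embryo through its earliest divisions. The stated aim of the study was to learn what each enzyme does during that growth, and the contrast of the single knockouts bears on how far the enzymes differ.

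The array signals are on a log scale read as log2, and 21218 probe sets with exactly 1 gene symbol were tested, covering 18820 genes. Correlations across probe sets between arrays of a group ran from 0.9965 to 0.9976 for the Hdac1 knockout and from 0.9959 to 0.997 for the Hdac2 knockout, and between the 2 groups from 0.9929 to 0.9957. The 14 oocyte markers, among them Zp3, Gdf9 and Bmp15, had array means of 11.41 to 11.48 in the Hdac1 knockout and 11.40 to 11.45 in the Hdac2 knockout, and 0 of the 14 were called (limma; 0 at an unadjusted p under 0.05). The 14 granulosa markers had array means of 4.69 to 4.75 and 4.61 to 4.75 in the same order, with Foxl2 at 4.71 in both and Amh at 3.45 and 3.49. Nr5a2, at 9.80 and 9.60, was the only 1 of the 14 above the median level of 5.27 over tested probe sets. None of these 14 was called, 2 had an unadjusted p under 0.05, and Kitl was the lowest of them at -0.25 (limma adjusted p = 0.0923). In pooled oocytes a change in the share of oocytes that express a gene and a change in RNA per oocyte cannot be told apart. Of 11 theca and stroma markers 0 were called (0 at an unadjusted p under 0.05).

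Hdac1 (probe set 10516605) read 6.40, 6.53, 6.70 and 6.83 on the 4 arrays of the Hdac1 knockout and 9.69, 9.77, 9.55 and 9.56 on those of the Hdac2 knockout. Every Hdac2-knockout array was thus far above every Hdac1-knockout array. The difference was 3.03 ± 0.08 (SE; 95% interval 2.85 to 3.20), which leaves the Hdac1 knockout with 12.3% of the signal of the Hdac2 knockout (limma adjusted p = 7.79e-13; exact permutation p = 0.0286, two-sided, the smallest that 4 against 4 arrays can give). The other Hdac1 probe set differed by 3.06. Against the wild type mean of 9.28 at probe set 10516605, the Hdac1 knockout held 15.8% of the signal. The Hdac2 knockout held 128.8% of it, a rise of 0.36 (limma adjusted p = 0.0172), so part of the difference lies in the Hdac2 knockout. Hdac2 (probe set 10362520) read 11.16, 11.05, 11.14 and 11.16 in the Hdac1 knockout and 10.95, 11.01, 11.01 and 10.99 in the Hdac2 knockout. The groups did not overlap, but the difference was small at -0.14 ± 0.05 (SE; 95% interval -0.24 to -0.03; limma adjusted p = 0.14; exact permutation p = 0.0286, two-sided). This probe set therefore does not show the Hdac2 deletion, neither the deleted exons nor those read by the probe set are named in the labels, and the genotype labelled Hdac2 knockout was not checked by it. The other nuclear class I enzymes did not pass: Hdac3 differed by -0.09 (95% interval -0.29 to 0.10; limma adjusted p = 0.666) and Hdac8 by -0.26 (95% interval -0.44 to -0.08; limma adjusted p = 0.092).

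Mt1, a metallothionein that binds zinc and copper, is a gene at which the single knockouts stood together. It read 10.85, 11.30, 11.30 and 11.12 in the Hdac1 knockout and 11.01, 10.99, 11.20 and 11.02 in the Hdac2 knockout, against a wild type mean of 6.51 ± 0.10 (SD, n = 4). The 8 knockout arrays overlapped fully, with a difference of -0.09 ± 0.09 (SE; 95% interval -0.28 to 0.10; limma adjusted p = 0.678). Its mean in the double knockout was 11.07 ± 0.07 (SD, n = 4).

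Between the single knockouts 1226 probe sets passed at an adjusted p under 0.05, 5.78% of those tested, of which 629 (2.96%) were higher in the Hdac2 knockout and 597 (2.81%) higher in the Hdac1 knockout. The balance of the directions turned with the scaling: with arrays centred on their medians 562 and 669 were called, against 585 and 668 after quantile normalization. The median size of a call was 1.36-fold among those higher in the Hdac2 knockout and 1.32-fold among those higher in the Hdac1 knockout. Larger differences leaned one way: 469 calls (2.21%) reached 1.4-fold, 273 of them higher in the Hdac2 knockout. At 2-fold or more there were 49 calls higher in the Hdac2 knockout and 9 higher in the Hdac1 knockout, and at 4-fold or more 11 and 0. Both Hdac1 probe sets, which read the deletion itself, are among the 49 and the 11, while the Hdac2 probe set was not called. The arrays of the groups did not overlap for 571 and 535 of the calls in these directions; over all tested probe sets 2654 (12.5%) had arrays that did not overlap. The largest difference among calls was 4.34 on the log2 scale in the first direction and 1.25 in the second. The count depends on single arrays: 794 and 785 were called without Hdac1-knockout replicate 1 or 3, and 752 and 678 without Hdac2-knockout replicate 1 or 4. The lowest counts by direction, 386 higher in the Hdac2 knockout and 292 higher in the Hdac1 knockout, were those without Hdac2-knockout replicate 4. Calls were most frequent among probe sets of middling level, at 12.8% of those with a mean of 5.27 to 8.20, against 6.48% of those above 8.20 and 0.641% of those below 3.81.

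**Figure D1:**
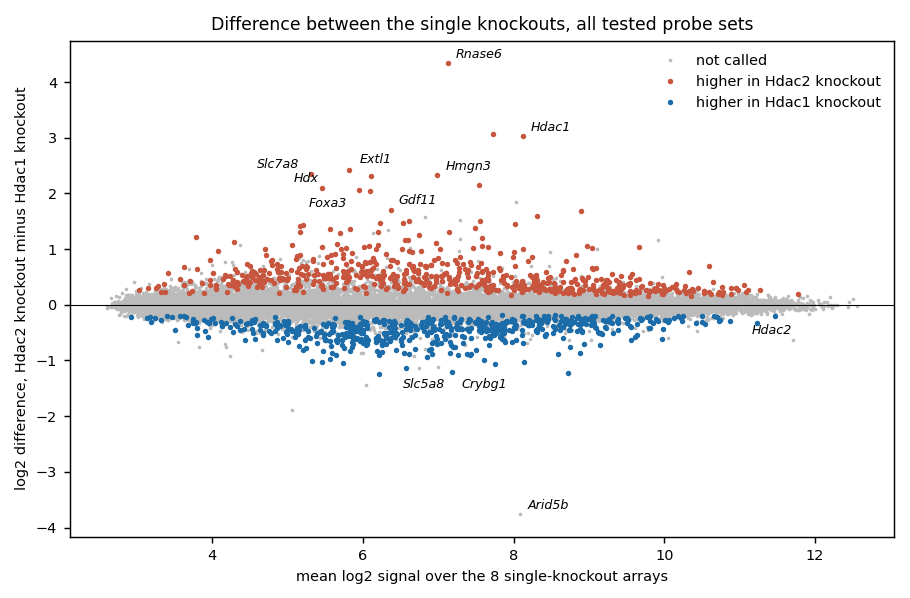
Each point is 1 of the 21218 tested probe sets, with its mean log2 signal over the 8 single-knockout arrays on the x axis and the log2 difference, Hdac2 knockout minus Hdac1 knockout, on the y axis; coloured points passed at an adjusted p under 0.05. Rnase6, Hdac1 and Extl1 lie far above 0, the called points below 0 reach only -1.25, and Arid5b at -3.76 is not called.

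Rnase6, a secreted ribonuclease with antibacterial activity, showed the largest difference. It read 5.42, 4.93, 4.70 and 4.79 in the Hdac1 knockout and 8.78, 9.68, 9.71 and 9.03 in the Hdac2 knockout. All 4 Hdac2-knockout arrays lay near the wild type mean of 9.15 ± 0.09 (SD, n = 4), and all 4 Hdac1-knockout arrays lay far below it. The difference of 4.34 ± 0.50 (SE) was 20.2-fold (limma adjusted p = 0.00013). The double-knockout arrays read 7.97, 5.61, 8.33 and 5.39, so 2 were near the Hdac1 knockout and 2 lay between it and the wild type, whose lowest array read 9.07. Slc7a8, a light chain of a transporter of neutral amino acids, read 4.30, 4.03, 4.01 and 4.20 in the Hdac1 knockout and 5.72, 6.76, 7.04 and 6.43 in the Hdac2 knockout, a difference of 2.36 ± 0.28 (SE; limma adjusted p = 0.000176). Its wild type mean of 5.47 lay between them, and its double-knockout arrays spread over 5.20, 4.18, 5.37 and 4.05. In both genes the double-knockout arrays 1 and 3 were the higher pair. Both genes lie on chromosome 14, with promoter stretches from base 51128814 for Rnase6 and base 54781837 for Slc7a8. They may therefore not be separate readings, and the part of linked DNA in their differences was not tested.

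Genes near the wild type in the Hdac1 knockout and higher in the Hdac2 knockout made up most of the other large differences. Hmgn3, a nucleosome-binding high-mobility-group protein, read 5.89, 5.85, 5.93 and 5.57 in the Hdac1 knockout and 8.25, 8.01, 8.12 and 8.19 in the Hdac2 knockout. Its wild type mean was 6.08 and its double-knockout mean 8.29, so the Hdac2 knockout stood with the double knockout (difference 2.33 ± 0.09 SE; limma adjusted p = 8.17e-11). Slc38a2, a sodium-coupled carrier of neutral amino acids, read 4.52, 5.35, 4.86 and 5.08 against 8.63, 6.48, 6.54 and 7.41 and was higher by 2.31 ± 0.36 (SE; limma adjusted p = 0.00131). The Hdac2-knockout arrays were widely spread here and still all lay above the Hdac1-knockout arrays. Hdx, a divergent homeobox gene on the X chromosome, was higher by 2.10 ± 0.14 (SE), Foxa3, a forkhead transcription factor best known in liver, by 2.06 ± 0.19 and the homeobox gene Hoxd8 by 2.04 ± 0.17 (limma adjusted p = 3.76e-07, 1.39e-05 and 5.77e-06). Their means with Hdac1, with Hdac2 and with both genes knocked out were 4.41, 6.51 and 7.11 for Hdx, 4.92, 6.98 and 8.96 for Foxa3, and 5.07, 7.11 and 7.56 for Hoxd8. Tpst1, which sulphates tyrosines in the Golgi, was higher by 2.83-fold and Pip5k1b, a phosphoinositide kinase, by 2.77-fold (limma adjusted p = 4.84e-07 and 0.0025).

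Gdf11, which signals through TGF-beta family receptors, read 5.20, 5.99, 5.67 and 5.25 in the Hdac1 knockout and 7.72, 6.78, 7.24 and 7.19 in the Hdac2 knockout (difference 1.71 ± 0.19 SE; limma adjusted p = 0.000108). Kdm5b, a demethylase of histone H3 lysine 4, read 5.08, 5.56, 5.52 and 5.77 against 7.34, 6.82, 6.63 and 7.05 (1.48 ± 0.17 SE; limma adjusted p = 0.000126). In both genes the Hdac2-knockout arrays lay between the Hdac1-knockout arrays and the double knockout, whose means were 10.05 ± 0.15 for Gdf11 and 9.77 ± 0.12 for Kdm5b (SD, n = 4). Bcor, an X-linked co-repressor that is part of a variant Polycomb complex, read 5.77, 5.94, 5.85 and 5.87 against 7.44, 7.22, 7.49 and 7.30 (1.51 ± 0.13 SE; limma adjusted p = 6.33e-06), with 7.95 in the double knockout.

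Extl1, a glycosyltransferase of heparan sulphate synthesis, had a pattern of its own among these genes. It read 4.76, 4.46, 4.54 and 4.68 in the Hdac1 knockout and 6.84, 6.93, 7.39 and 6.94 in the Hdac2 knockout, a difference of 2.42 ± 0.11 (SE) or 5.34-fold (limma adjusted p = 8.71e-10). The wild type mean was 4.44 and the double-knockout mean 4.55, so the Hdac2 knockout alone was high. Extl1 lies on chromosome 4, as does Hdac1.

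**Figure D2:**
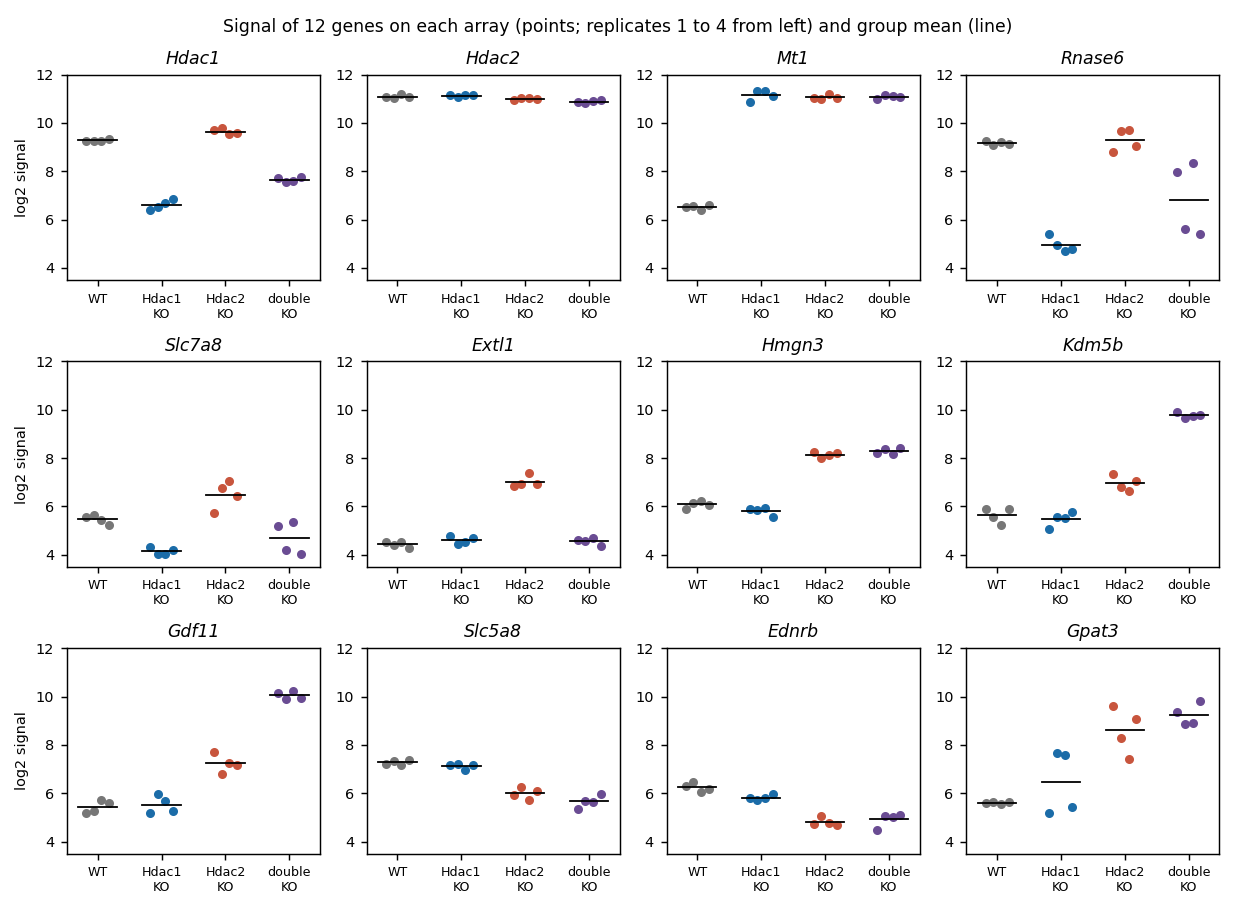
Each panel shows 1 gene, with the log2 signal of every array as points for wild type (WT), the Hdac1 knockout, the Hdac2 knockout and the double knockout (4 arrays each) and the group mean as a line. Rnase6 is low on all 4 Hdac1-knockout arrays and spread on those of the double knockout, Extl1 is high in the Hdac2 knockout alone, Gdf11 and Kdm5b step up from the Hdac1 to the Hdac2 to the double knockout, and Mt1 is at one level in all 3 knockouts.

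Promoter sequence is shown for 5 of these genes, chosen after their values were seen, to set genes that differ between the knockouts in different ways beside each other: Gdf11, Kdm5b and Bcor, which were higher in the Hdac2 knockout, and Slc7a8 and Rnase6, whose Hdac1-knockout arrays lay below the wild type. Each runs 5′ to 3′ along the gene from 250 bases before to 50 after the RefSeq start in GRCm38.p6, and capitals mark GC boxes, GGGCGG or CCGCCC as the same box on the other strand. Where a gene has several starts the first listed was taken, which applies to Bcor (2 starts) and Rnase6 (3 starts).
Gdf11, chr10:128891669-128891968, minus strand: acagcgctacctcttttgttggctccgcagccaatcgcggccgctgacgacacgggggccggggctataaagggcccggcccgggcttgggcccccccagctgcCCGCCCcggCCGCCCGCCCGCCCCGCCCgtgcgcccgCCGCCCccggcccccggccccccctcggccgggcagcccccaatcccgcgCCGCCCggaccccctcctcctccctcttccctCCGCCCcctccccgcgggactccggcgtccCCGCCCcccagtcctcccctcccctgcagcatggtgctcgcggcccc
Kdm5b, chr1:134559928-134560227, plus strand: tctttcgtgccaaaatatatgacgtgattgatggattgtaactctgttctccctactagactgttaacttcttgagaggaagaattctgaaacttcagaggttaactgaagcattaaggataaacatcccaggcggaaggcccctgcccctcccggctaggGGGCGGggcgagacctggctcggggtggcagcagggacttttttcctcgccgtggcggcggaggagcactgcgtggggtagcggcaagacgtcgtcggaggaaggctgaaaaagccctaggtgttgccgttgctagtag
Bcor, chrX:12160297-12160596, minus strand: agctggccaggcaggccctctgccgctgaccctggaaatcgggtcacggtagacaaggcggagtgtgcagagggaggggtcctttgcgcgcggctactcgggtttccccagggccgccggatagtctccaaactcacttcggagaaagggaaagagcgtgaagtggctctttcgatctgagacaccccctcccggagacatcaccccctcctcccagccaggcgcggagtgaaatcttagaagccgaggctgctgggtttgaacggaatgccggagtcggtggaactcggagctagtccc
Slc7a8, chr14:54781837-54782136, minus strand: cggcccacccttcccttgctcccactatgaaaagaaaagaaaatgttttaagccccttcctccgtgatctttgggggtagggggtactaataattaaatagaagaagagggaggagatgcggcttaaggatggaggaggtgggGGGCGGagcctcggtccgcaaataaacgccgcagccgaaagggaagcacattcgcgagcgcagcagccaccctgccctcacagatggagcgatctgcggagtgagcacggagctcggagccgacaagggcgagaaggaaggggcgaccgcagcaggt
Rnase6, chr14:51128814-51129113, plus strand: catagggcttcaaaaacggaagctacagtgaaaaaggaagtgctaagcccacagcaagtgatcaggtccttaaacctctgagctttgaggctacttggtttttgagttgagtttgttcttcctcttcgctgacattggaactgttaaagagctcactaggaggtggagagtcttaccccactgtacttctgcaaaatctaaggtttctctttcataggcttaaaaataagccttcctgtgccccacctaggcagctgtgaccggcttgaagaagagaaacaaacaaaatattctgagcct
The Gdf11 promoter held 36 CpG dinucleotides and 9 GC boxes, some overlapping, all on the other strand. Kdm5b had 17 CpG and 1 GC box, Slc7a8 had 20 CpG and 1 GC box, Bcor had 21 CpG and no match, and Rnase6 had 3 CpG and no match. Promoters could be matched for 14739 of the 18820 genes. Among genes higher in the Hdac2 knockout the median promoter had 20 CpG and 63.7% held a GC box, and among those higher in the Hdac1 knockout these were 18 and 58.3%. All matched genes had a median of 15 CpG and 50.3% with a GC box, and genes above the median level 22 and 65.9%, so both sets of calls were no richer than genes of that level. The TATA box TATAAA was found in 10.7% and 5.54% of the promoters of the 2 sets in the same order, against 12.3% of all and 6.72% of those above the median level. The E-box CACGTG was found in 12% and 9.31%, against 8.43% and 10.7%, and CCAAT in 39.9% and 37.7%, against 38.3% and 39.4%.

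Genes higher in the Hdac1 knockout differed less. Slc5a8, a sodium-coupled carrier of lactate, butyrate and other monocarboxylates, read 7.18, 7.23, 6.98 and 7.17 in the Hdac1 knockout and 5.94, 6.27, 5.73 and 6.10 in the Hdac2 knockout (-1.13 ± 0.12 SE; limma adjusted p = 5.75e-05). Its wild type mean of 7.28 was at the level of the Hdac1 knockout, and the double knockout averaged 5.66. Ednrb, the endothelin B receptor, read 5.82, 5.72, 5.80 and 5.95 against 4.74, 5.06, 4.75 and 4.69 (-1.01 ± 0.13 SE; limma adjusted p = 0.000335), with 6.25 in the wild type and 4.92 in the double knockout. Tktl2, related to transketolase, differed by -0.98 ± 0.12 (SE), the keratin Krt12 by -0.94 ± 0.13, the E-protein transcription factor Tcf4 by -0.91 ± 0.12, Fbxo40, an F-box protein, by -0.89 ± 0.13 and the zinc finger gene Zfp40 by -0.88 ± 0.14 (limma adjusted p = 0.0002 to 0.00205). For each of these 5 the arrays of the groups did not overlap, the wild type mean lay nearer to the Hdac1 knockout, and the double-knockout mean lay below the Hdac2-knockout mean. Stard5, a lipid transfer protein, and Plekhb2, a protein of endosomal membranes, differed by -0.88 and -0.89 (limma adjusted p = 0.00411 and 0.00385).

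Mrc1 and Gpnmb, known from macrophages, were also higher in the Hdac1 knockout. Mrc1 read 6.08, 5.95, 5.93 and 5.96 against 4.56, 4.83, 5.32 and 5.06 (-1.03 ± 0.17 SE; limma adjusted p = 0.00187), and Gpnmb differed by -0.89 ± 0.12 (SE; limma adjusted p = 0.00046). Of the 11 measured markers of blood, immune and endothelial cells 0 were called (limma; 1 at an unadjusted p under 0.05), and their summed linear signal was 529 to 607 in the Hdac1 knockout and 510 to 592 in the Hdac2 knockout. The leukocyte marker Ptprc was at 3.81 and 3.84 and the macrophage marker Adgre1 at 3.30 and 3.27, both below the median level of 5.27 over tested probe sets. In the same list Cd68 was at 5.74 and 5.80 and Pecam1 at 8.55 and 8.35, above that level in both knockouts. The part of blood, immune and endothelial cells in the Mrc1 and Gpnmb differences was not tested.

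Some large differences rest on few arrays or 1 probe set. Cmtm8, a small membrane protein, differed by -1.25 (limma adjusted p = 0.0315) and its call was lost in 7 of the 8 fits without 1 array (adjusted p 0.0501 to 0.0922); Hdac1-knockout replicate 4 at 6.07 stood apart from the others at 7.05 to 7.13. Raet1e, a ligand of the NKG2D receptor, and the zinc finger gene Zfp516 differed by -0.91 and -0.88, and their calls were lost in 4 and 5 of those 8 fits (adjusted p up to 0.0883 and 0.0828). Crybg1, a crystallin-like protein, differed by -1.20 ± 0.16 (SE; limma adjusted p = 0.000394), but its other probe set differed by only -0.20 (limma adjusted p = 0.354). Arid5b, a DNA-binding protein of chromatin, had the widest difference of means, 9.97 ± 0.16 in the Hdac1 knockout and 6.21 ± 2.50 (SD, n = 4) in the Hdac2 knockout, and was not called (-3.76; limma adjusted p = 0.0999); the SD was 2.14 in the wild type as well. Pxdn and Parp8, with 7.11 ± 1.90 and 6.53 ± 1.79 (SD, n = 4) in the Hdac1 knockout, were also uncalled (limma adjusted p = 0.0862 and 0.151). Arid5b, Pxdn and Parp8 were named after their values were seen.

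The wild type means lay mostly beside the Hdac1 knockout. They do not enter the difference between the single knockouts, but the wild type arrays enter the shared estimate of the spread. The wild type mean was nearer to the Hdac1 knockout than to the Hdac2 knockout for 509 of the 629 probe sets higher in the Hdac2 knockout (80.9%) and for 512 of the 597 higher in the Hdac1 knockout (85.8%), against 58.1% of all tested. The median distance from the wild type was 0.11 for the Hdac1 knockout and 0.35 for the Hdac2 knockout in the first set, and 0.09 and 0.32 in the second. Against the shared wild type arrays 15 probe sets (0.0707%) were called in the Hdac1 knockout and 1187 (5.59%) in the Hdac2 knockout. Rnase6 and Slc6a20a, nearer to the wild type in the Hdac2 knockout, were exceptions, and the wild type mean of Slc7a8 lay between the 2 knockouts. In the order Rnase6, Slc7a8 and Slc6a20a they had differences from the wild type of -4.19, -1.33 and -0.82 in the Hdac1 knockout and of 0.14, 1.02 and -0.04 in the Hdac2 knockout; the limma adjusted p was 0.00115, 0.12 and 0.0023 in the Hdac1 knockout and 0.923, 0.0452 and 0.899 in the Hdac2 knockout.

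The double-knockout and wild type arrays do not enter the difference between the single knockouts, but they enter the shared estimate of the spread. That spread is used in both comparisons, so a probe set with a small spread passes more easily in both. The shared calls are thus not a separate reading, and how far this raises their shares was not tested. They were not counted with the single-knockout arrays fitted alone. Against the wild type, 3924 probe sets were higher (18.5%) and 4198 lower (19.8%) in the double knockout. Of the 629 probe sets higher in the Hdac2 than in the Hdac1 knockout, 443 (70.4%) were higher in the double knockout and 35 (5.56%) lower, with a median change of 0.49. Of the 597 higher in the Hdac1 knockout, 453 (75.9%) were lower in the double knockout and 23 (3.85%) higher, with a median change of -0.54. With each array centred the shared calls were 377 and 562, and with quantile normalization 405 and 530. The shared calls were 11.3% of all that were higher and 10.8% of all that were lower in the double knockout. The base shares are larger among brighter probe sets, where most calls lie: of autosomal probe sets above the median level 23.9% were higher and 33.7% lower in the double knockout. Without Hdac2-knockout replicate 1 or 4 the shared calls were 288 and 298 in the first direction and 259 and 241 in the second, where those without Hdac1-knockout replicate 1, 2 or 3 were 289, 286 and 300. As a share of the calls of that fit they stayed between 66.7% and 77.2% in the first direction and between 74.2% and 82.5% in the second over the 8 fits without 1 array. The alternatives for these counts were chosen after seeing the data.

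Genes that went against this direction were few. Rnase6, Hdac1 itself and Slc7a8 were higher in the Hdac2 than in the Hdac1 knockout, while the double knockout minus the wild type was -2.33, -1.62 and -0.77. Gpr3, the receptor that keeps cyclic AMP high in the oocyte and holds it in meiotic arrest, was at 8.03 in the wild type, 8.15 and 8.41 with Hdac1 or Hdac2 knocked out, and 7.35 in the double knockout. Its difference of 0.27 between the single knockouts (limma adjusted p = 0.0297) was lost in 6 of the 8 fits without 1 array. In the other direction AU015228 was at 6.19 and 5.52 in the Hdac1 and Hdac2 knockouts and at 9.55 in the double knockout, and Klk7, a kallikrein-related protease, at 4.51, 4.23 and 7.63. The receptor gene Flt1 was at 5.36, 4.98 and 7.65. These 3 genes were named after their values were seen, and all 3 were higher in the double knockout than in the wild type (limma adjusted p = 2.46e-11, 1.85e-14 and 1.66e-12).

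**Figure D3:**
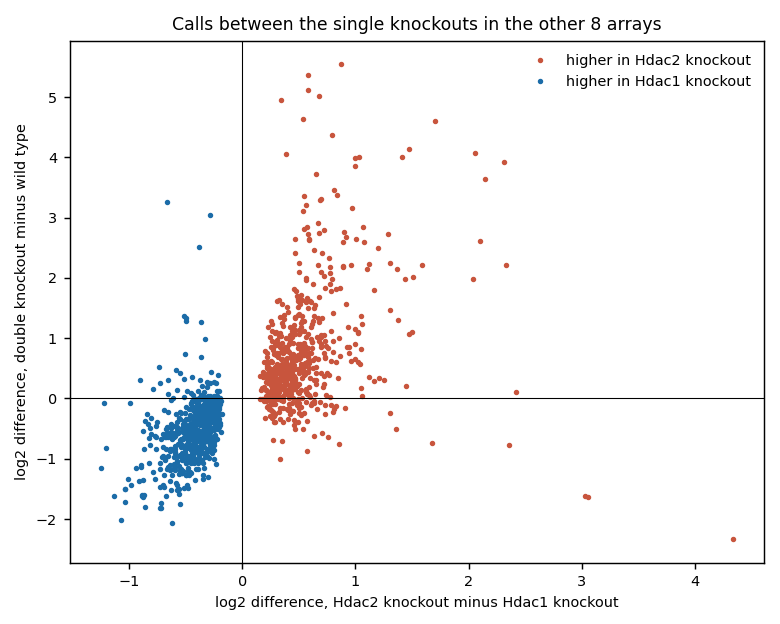
Each point is 1 of the 1226 called probe sets, with the log2 difference Hdac2 knockout minus Hdac1 knockout on the x axis and the log2 difference double knockout minus wild type, from the other 8 arrays, on the y axis. Most points lie in the upper right and lower left, and Rnase6 and the 2 Hdac1 probe sets lie in the lower right.

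Members of the deacetylase complexes moved little. Among 18 deacetylases and sirtuins, Hdac1 was higher in the Hdac2 knockout and the mitochondrial Sirt4 in the Hdac1 knockout (-0.48; limma adjusted p = 0.0411), with a median difference of -0.06 beside -0.01 over all probe sets tested. Of 12 NuRD subunits 0 were called (limma; 0 at an unadjusted p under 0.05), and they ranged from -0.13 for Mta2 to 0.08 for Chd5. Of 14 Sin3 complex subunits 4 were higher in the Hdac2 knockout and 1 higher in the Hdac1 knockout, 35.7% against 5.78% of all tested, with a median of 0.01. The 4 were Arid4a (0.38), Arid4b (0.29), Ing2 (0.31) and Brms1 (0.27), and the fifth was Sinhcaf (-0.21; limma adjusted p = 0.0236). Arid4a, a DNA-binding subunit, read 9.23, 9.13, 9.06 and 9.41 in the Hdac1 knockout and 9.70, 9.45, 9.43 and 9.77 in the Hdac2 knockout (limma adjusted p = 0.0273). Of 12 CoREST and MiDAC subunits, the scaffold Rcor1 was higher in the Hdac2 knockout (0.30; limma adjusted p = 0.0326) and Mideas, a scaffold of MiDAC, higher in the Hdac1 knockout (-0.43; limma adjusted p = 0.00435). Ing2 and Brms1 were named after their values were seen. The calls of Sirt4, Sinhcaf, Arid4a, Arid4b and Rcor1 were lost in 4 to 6 of the 8 fits without 1 array, and that of Mideas in none.

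Among other chromatin genes, Kdm5b was the only one of 8 H3K4 demethylases called, and Kmt2a, which methylates the same lysine, the only one of 15 genes of H3K4 methyltransferase complexes (0.61 ± 0.15 SE; limma adjusted p = 0.0231). Of 14 acetyltransferases and BET readers only Kat5 was called, higher in the Hdac1 knockout (-0.20; limma adjusted p = 0.0368). Of 12 DNA methylation genes the glycosylase Tdg was higher in the Hdac2 knockout (0.54; limma adjusted p = 0.0264) and the dioxygenase Tet1 lower (-0.72; limma adjusted p = 0.0481), but the other 2 Tet1 probe sets differed by 0.16 and 0.10. Of 25 Polycomb subunits Phc3 was higher (0.32) and Cbx2 lower (-0.25) in the Hdac2 knockout (limma adjusted p = 0.03 and 0.0438). Kdm5b kept its call in every fit without 1 array, while Kmt2a, Kat5, Tdg, Tet1, Phc3 and Cbx2 lost theirs in 5 or 6 of 8. In the order given the called shares of these lists were 12.5%, 6.67%, 7.14%, 16.7% and 8%. Over all tested probe sets the share was 5.78%, so several lists were near it.

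The genes that make up the identity of the oocyte were close to equal in the 2 knockouts. Of 13 oocyte transcription factors only Tbpl2, the oocyte form of the TATA-binding protein, was called, with 7.84, 7.82, 7.89 and 8.07 in the Hdac1 knockout and 8.30, 8.17, 8.16 and 8.45 in the Hdac2 knockout (0.36 ± 0.08 SE; limma adjusted p = 0.0145). Without Hdac2-knockout replicate 4 its adjusted p was 0.0547. Of 12 zona pellucida and secreted factor genes 0 were called (limma; 1 at an unadjusted p under 0.05), and of 18 maternal effect genes 0 (limma; 3 at an unadjusted p under 0.05), with ranges of -0.20 to 0.15 and -0.26 to 0.16. Of 22 genes of meiotic arrest and resumption only Gpr3 was called. Of 13 genes of the 2-cell stage, which mark the first burst of embryonic transcription, 3 were higher in the Hdac2 knockout and 1 higher in the Hdac1 knockout, 30.8% of the list against 5.78% of all tested probe sets. They were the ubiquitin protease genes Usp17lb (0.58 ± 0.13 SE) and Usp17la (0.54 ± 0.12), with Tcstv1 (1.05 ± 0.26), and Zfp750 in the other direction (-0.53 ± 0.12; limma adjusted p = 0.0124, 0.0178, 0.0276 and 0.0126). Usp17lb averaged 4.04 with Hdac1 knocked out, 4.62 with Hdac2 knocked out and 9.45 in the double knockout, so the step between the single knockouts was a small part of the range. Usp17la lost its call without Hdac1-knockout replicate 2 or Hdac2-knockout replicate 1 (adjusted p = 0.0504 and 0.0572), its other probe set differed by 0.21 (limma adjusted p = 0.611), and Tcstv1 was named after its values were seen. Usp17la and Usp17lb belong to a family of near-identical copies and their probe sets may share signal.

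Genes of cell cycle and death differed in single members. Cdkn1c, an inhibitor of cyclin-dependent kinases, read 7.26, 7.23, 7.07 and 7.21 in the Hdac1 knockout and 8.13, 7.72, 7.69 and 7.94 in the Hdac2 knockout, with 7.20 in the wild type and 8.89 in the double knockout. It was the only one of 8 such inhibitors called (0.68 ± 0.11 SE; limma adjusted p = 0.00142). Of 27 p53 targets, the stress-induced Sesn2 (0.32) and the antiproliferative Btg2 (0.32) were higher in the Hdac2 knockout, and Apaf1, the core of the apoptosome, higher in the Hdac1 knockout (-0.49 ± 0.10 SE; limma adjusted p = 0.0211, 0.0401 and 0.0109). The calls of Sesn2 and Btg2 were lost in 4 and 6 of 8 fits without 1 array. Of 14 BCL2 family genes 0 were called (limma; 2 at an unadjusted p under 0.05). The called shares were 12.5% of the kinase inhibitors and 11.1% of the p53 targets, against 5.78% of all tested probe sets.

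Of 33 measured carriers of amino acids, 5 were higher in the Hdac2 knockout and 2 higher in the Hdac1 knockout, 21.2% of the list against 5.78% of all tested probe sets; 26 were not called and the median was 0.01. Slc7a8 and Slc38a2 led, as given above. Slc6a20a, a carrier of proline, read 8.67, 8.26, 8.07 and 8.19 in the Hdac1 knockout and 9.07, 8.96, 9.15 and 9.15 in the Hdac2 knockout (0.78 ± 0.11 SE; limma adjusted p = 0.000495), where its level was close to that of the wild type (9.12) and of the double knockout (9.01). Slc6a15 (0.46) and the glutamate carrier Slc1a1 (0.69) were also higher in the Hdac2 knockout (limma adjusted p = 0.00775 for both). The lysosomal Slc38a9 (-0.58) and the cystine carrier Slc7a11 (-0.33) were higher in the Hdac1 knockout (limma adjusted p = 0.0113 and 0.0498). Slc6a15, Slc1a1, Slc38a9 and Slc7a11 were named after their values were seen. For Slc6a20a and Slc6a15 the wild type and double-knockout means both lay on the side of the Hdac2 knockout. Slc38a2 and Slc1a1 were higher still in the double knockout.

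In lipid synthesis Gpat3, which starts triglyceride synthesis in the endoplasmic reticulum, had the widest scatter of any gene called for a list. It read 5.19, 7.68, 7.58 and 5.42 in the Hdac1 knockout and 9.63, 8.30, 7.43 and 9.09 in the Hdac2 knockout, so the groups overlapped. The wild type arrays read 5.55 to 5.62, with 2 Hdac1-knockout arrays below that range and 2 well above it. The difference of 2.15 ± 0.53 (SE; limma adjusted p = 0.0242) lost its call in 4 of 8 fits without 1 array (adjusted p 0.0645 to 0.0805 without Hdac1-knockout replicate 1 or 4 or Hdac2-knockout replicate 1 or 4). Its mitochondrial relative Gpam differed the other way by -0.32 (limma adjusted p = 0.0411), a call lost in 6 of those 8 fits. In this list of 20 only these 2 passed, 10% against 5.78% of all tested probe sets. An unadjusted p under 0.05 was seen for 12 (limma), and the median was -0.10.

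Among 21 TGF-beta family ligands Gdf11 was higher in the Hdac2 knockout and Tgfb3 higher in the Hdac1 knockout (-0.58 ± 0.16 SE; limma adjusted p = 0.0468). The Tgfb3 arrays of the groups overlapped, and leaving out 1 array ended its call in 6 of 8 fits. Among 26 metallothioneins and zinc carriers, Slc30a2, which loads zinc into vesicles, was higher in the Hdac2 knockout (0.74 ± 0.14 SE) and Slc39a11, a zinc importer, higher in the Hdac1 knockout (-0.45 ± 0.08; limma adjusted p = 0.00613 and 0.00503). Slc30a2 averaged 5.57 with Hdac1 and 6.30 with Hdac2 knocked out, 5.40 in the wild type and 5.46 in the double knockout, high in the Hdac2 knockout alone. It too lies on chromosome 4, at 180 genes from Hdac1 and next to Extl1 at 181, so these may not be separate readings. Among 21 neuronal genes repressed by REST, Calb1, a calcium-binding protein, read 6.61, 6.72, 6.96 and 6.89 against 8.48, 8.04, 8.08 and 8.10 (1.38 ± 0.15 SE; limma adjusted p = 9.6e-05), and Cplx1, a complexin of vesicle release, was higher in the Hdac1 knockout (-0.38 ± 0.08; limma adjusted p = 0.0129). The called shares of the TGF-beta, zinc and REST lists were 9.52%, 7.69% and 9.52%, against 5.78% of all tested probe sets.

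Calls on the X chromosome leaned toward the Hdac2 knockout, unlike those on the autosomes, a pattern noticed after the data were seen and given as a description. Of 784 tested X-linked probe sets 57 (7.27%) were higher in the Hdac2 knockout and 9 (1.15%) higher in the Hdac1 knockout, while on the autosomes these were 572 (2.81%) and 588 (2.89%) of 20361. Above the median level the shares were 12.8% and 2.68% on the X chromosome and 4.68% and 4.79% on the autosomes. The number of X-linked calls higher in the Hdac2 knockout was 37 without Hdac2-knockout replicate 1 and 31 without replicate 4, and of those higher in the Hdac1 knockout 3, 5, 4 and 5 were left without Hdac1-knockout replicate 1 or 2 or Hdac2-knockout replicate 1 or 4. The mean log2 signal of these brighter X-linked probe sets less that of the autosomal ones was -0.06, -0.04, -0.07 and -0.02 on the Hdac1-knockout arrays and 0.04, 0.04, 0.03 and 0.08 on the Hdac2-knockout arrays. All 4 Hdac1-knockout arrays lay below all 4 wild type arrays, which read -0.01 to 0.01, and all 4 Hdac2-knockout arrays lay above them. The double knockout was at 0.08 to 0.13. These are means, and the median X-linked probe set above the median level moved less: its difference from the wild type was -0.04 in the Hdac1 knockout and 0.0042 in the Hdac2 knockout, with 38.4% and 51.5% of these probe sets above 0.

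Besides Hdx, Bcor and Tceal8, a gene of a family of proteins resembling an elongation factor (1.59 ± 0.17 SE; limma adjusted p = 5.75e-05), the X-linked genes higher in the Hdac2 knockout included Gpr50, a relative of the melatonin receptors (1.41), Bhlhb9 (1.37), Tceal9 (1.30), Amer1, a regulator of Wnt signalling (1.05), and Hmgn5, a nucleosome-binding relative of Hmgn3 (1.02), with limma adjusted p up to 0.0174. Bhlhb9 averaged 4.88 ± 0.63 with Hdac1 knocked out, 6.24 ± 0.21 with Hdac2 knocked out and 5.56 ± 0.21 (SD, n = 4) in the wild type, between the 2 knockouts. Amer1 averaged 7.14 ± 0.13 and 8.18 ± 0.08 (SD, n = 4), with 7.32 in the wild type. The 9 calls in the other direction included Usp26, a testis ubiquitin protease (-0.59), Ppef1 (-0.50), Pcyt1b (-0.48), Nkrf (-0.47) and Atp2b3 (-0.45), with limma adjusted p from 0.00775 to 0.0457. The X-linked genes other than Hdx, Bcor and Tceal8 were named after their values were seen.

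**Figure D4:**
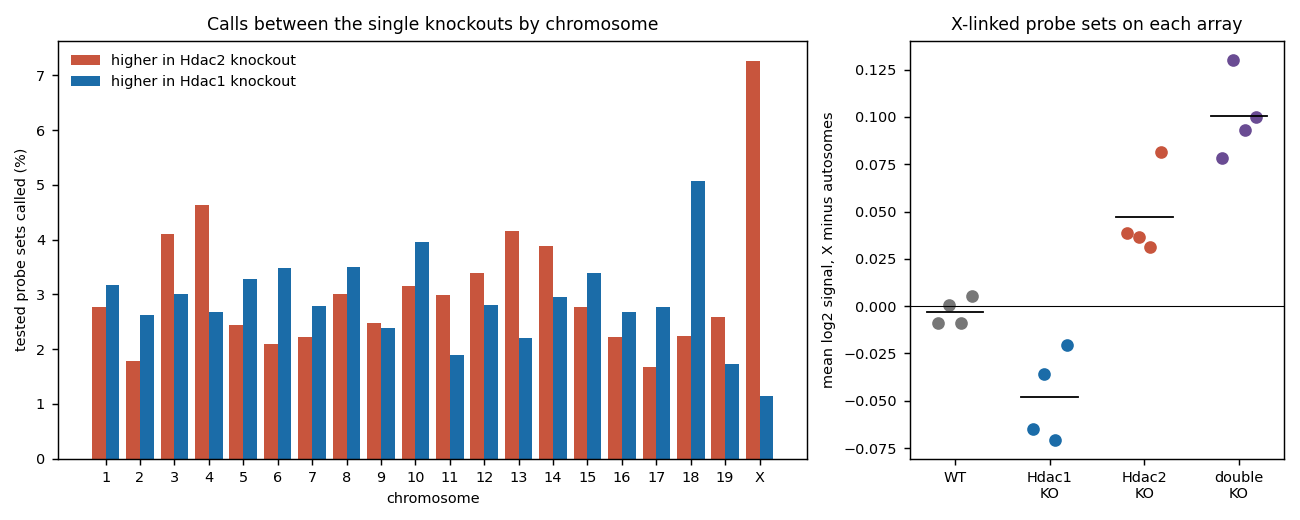
Left, the percentage of tested probe sets of each chromosome called higher in the Hdac2 knockout or in the Hdac1 knockout; right, the mean log2 signal of X-linked less autosomal probe sets above the median level, with 1 point per array and a line at the group mean. The X chromosome has the tallest bar for the Hdac2 knockout (7.27%) and the shortest for the Hdac1 knockout (1.15%), and on the right the Hdac1-knockout, wild type and Hdac2-knockout arrays do not overlap. Chromosome Y, with 0 calls of 37 probe sets, is not drawn.

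The chromosomes that carry the deleted genes were looked at apart, since conditional alleles bring flanking DNA with them. Chromosome 4, which carries Hdac1, had 93 calls (7.32%), 2 of them the Hdac1 probe sets, beside 7.3% on chromosome 18, and chromosome 10, which carries Hdac2, had 70 (7.11%), the same share as chromosome 3; the lowest was chromosome 19 at 4.32%. In a window of 50 genes to each side of Hdac1, 6 of 50 probe sets (12%) were called, and in the same window around Hdac2 2 of 59 (3.39%), against 5.61% on all other chromosomes. Without Hdac2-knockout replicate 1 or 4 the calls on chromosome 10 were 44 and 46. Iqcc, beside Hdac1, read 5.25, 5.44, 5.27 and 5.19 in the Hdac1 knockout and 6.32, 6.11, 6.26 and 6.08 in the Hdac2 knockout (0.91 ± 0.09 SE; limma adjusted p = 3.64e-05). The RNA-binding protein gene Khdrbs1 differed by -0.52 ± 0.06 (SE) and by -0.99 at its other probe set, and Zbtb8os, a component of the tRNA ligase complex, by -0.46 ± 0.06 (limma adjusted p = 0.000137 and 0.000379). Zcchc17 differed by 0.27 and Ccdc28b by -0.30 (limma adjusted p = 0.00307 and 0.00497). Iqcc, Khdrbs1, Zbtb8os, Zcchc17 and Ccdc28b had wild type and double-knockout means on the side of the Hdac1 knockout, so the Hdac2 knockout stood apart. These means were 8.68 and 8.71 for Khdrbs1 and 10.31 and 10.31 for Ccdc28b. For Zbtb8os the double-knockout mean of 8.80 lay between the Hdac1-knockout mean of 8.98 and the Hdac2-knockout mean of 8.53. Near Hdac2 the 2 calls were Mfsd4b2 (-0.32) and Tspyl4 (0.24; limma adjusted p = 0.0175 and 0.0326). The call of Tspyl4 was lost in 6 of the 8 fits without 1 array, and that of Mfsd4b2 without Hdac2-knockout replicate 4 (adjusted p = 0.0605).

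Calls were sorted by the side of the midpoint between the single-knockout means on which the wild type and double-knockout means lay. Both lay on the side of the Hdac1 knockout, which sets the Hdac2 knockout apart, for 36 of 91 calls on chromosome 4 (39.6%). The shares were 5.71% on chromosome 10 and 11.9% on the other chromosomes. Of those 36, 22 (61.1%) lay within 250 genes of Hdac1, which held 21.7% of the tested probe sets of the chromosome. They included Extl1, Slc30a2, Iqcc, Gpr3 and both probe sets of Khdrbs1. The double knockout was not always at the wild type level: double knockout minus wild type was -0.69 for Gpr3, -0.75 for Htr1d, -0.62 for Pnrc2, -0.50 for Gpn2 and 0.26 for Laptm5. The reverse, with both means on the side of the Hdac2 knockout, was seen for 13 of 70 calls on chromosome 10 (18.6%), for 12.1% on chromosome 4 and for 13.3% elsewhere. Of those 13, 8 (61.5%) lay within 250 genes of Hdac2, which held 20.5% of the tested probe sets of the chromosome; they included Ostm1, a partner of a lysosomal chloride carrier (-0.79), Enpp3, an ectonucleotidase (0.83), Wasf1, an actin regulator (0.33), and Raet1e. These shares were counted after the data were seen and carry no test, and a sequence difference in flanking DNA and an effect of the deletion cannot be told apart here.

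**Figure D5:**
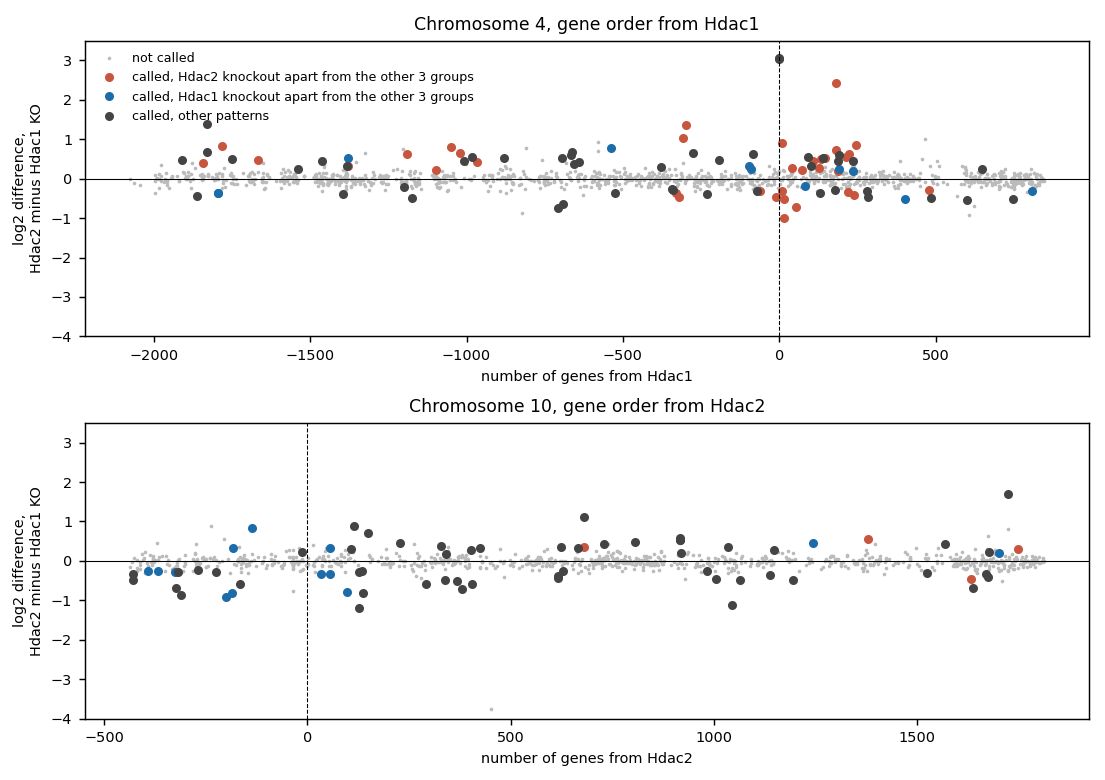
Each point is a tested probe set of chromosome 4 (top, by number of genes from Hdac1) or chromosome 10 (bottom, by number of genes from Hdac2), with its log2 difference Hdac2 knockout minus Hdac1 knockout. Calls are coloured by which single knockout stood apart, with the wild type and double-knockout means both on the other side of the midpoint between the single knockouts. On chromosome 4, 22 of the 36 calls with the Hdac2 knockout apart lie within 250 genes of Hdac1, and on chromosome 10, 8 of the 13 with the Hdac1 knockout apart lie within 250 genes of Hdac2.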

How the data were processed

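Growing oocytes of 4 genotypes were measured on 16 arrays, 4 per genotype, grouped by their titles. The deposited table gives the log2 signal of 35556 probe sets on each array, made by the authors with MAS5 among other programs, per the submitters' processing notes, version not given. The base is not stated and was inferred from the values: the highest would be a brightness of 394439 with base e and 7566 with base 2. All folds rest on that. The sources used here do not state how the programs were combined. The median of an array was 4.46 to 4.59, so values were used as deposited. Amplification of RNA from 80 oocytes and the number of arrays limit the precision.

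Probe sets with exactly 1 symbol in the platform annotation were tested (21218; 1881 had several symbols and 12457 none). Chromosome and gene order came from the RefSeq table of GRCm38.p6, which matched 21185. In R 4.3.3 with limma 3.58.1, a model with 1 mean for each genotype was fitted over the 16 arrays (12 residual degrees of freedom), and two-sided p-values of the contrast were adjusted by Benjamini-Hochberg over all 21218; a call is an adjusted p under 0.05. For a gene with several probe sets, the one brightest on average over 16 arrays was taken. On simulated data with known changes in this contrast, 79 of 100 probe sets changed by 0.5 and 99 of 100 changed by 1 on the log2 scale were called. Among the rest of the 21218 simulated probe sets, which were left unchanged, 9 were called falsely.

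Named genes were the class I deacetylases; up to 15 per direction with the largest difference, non-overlapping arrays, the brighter group mean above the median level and no provisional symbol; up to 3 called members per list by adjusted p; up to 8 called genes within 50 genes of each deleted gene; and Mt1. Members and lists were chosen with earlier results of these data known. The labels call the replicates biological. Same-numbered arrays of the 2 groups deviated together at r = 0.01, 0.02, 0.09 and 0.03, so the numbers were not used as pairs. Alternatives were the 8 arrays alone, centring, quantile normalization, a filter on dim probe sets, a trended robust prior, a replicate block, adjustment over all probe sets, 1 probe set per gene, a 1.4-fold limit, both chromosomes left out, other windows, and each array left out.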

Additional observations from a re-analysis of the deposited data

Results flagged for a closer look

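In 8 of the 140 groups of 4 arrays tested for the named genes, 1 array lay apart from the other 3 by more, as a share of the group's range, than Dixon's critical value at the 95% level; chance flags about 1 in 20 groups. Cmtm8 in the Hdac1 knockout read 6.07 on replicate 4 and 7.05 to 7.13 on the others. Usp17la in the Hdac2 knockout read 6.51 on replicate 1 against 6.04 to 6.08, and Calb1 on the same array read 8.48 against 8.04 to 8.10. Ednrb in the Hdac2 knockout read 5.06 on replicate 2 against 4.69 to 4.75. Slc39a11 in the Hdac1 knockout read 5.62 on replicate 3 against 5.26 to 5.30. The 3 smaller gaps were those of Hdac2 in the Hdac1 knockout, 11.05 on replicate 2 against 11.14 to 11.16, Hdac8 in the Hdac2 knockout, 7.56 on replicate 3 against 7.68 to 7.71, and Ccdc28b in the Hdac1 knockout, 10.28 on replicate 1 against 10.17 to 10.18.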

How the results depend on the processing

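Against 1226 calls, 1004 were made with the 8 arrays alone (836 shared), 1231 centred (1154), 1253 quantile-normalized (1175), 1396 without dim probe sets (1024), 1368 with a trended robust prior (1147), 1168 with 1 probe set per gene (1133) and 1050 without chromosomes 4 and 10 (1050). With a replicate block 1026 were called, 969 of them shared; the samples share only a number. Adjusted over all 35556 probe sets 813 were called, 372 higher in the Hdac1 knockout, 297 of these lower in the double knockout, and 5 X-linked ones higher in the Hdac1 knockout; the last count was 14 without dim probe sets. With a 1.4-fold limit the counts were 469 in all, 273 and 196 by direction, 207 and 165 shared with the double knockout, 42 on chromosome 4, 26 on chromosome 10, 28 and 2 on the X chromosome, 3 near Hdac1 and 0 near Hdac2. Calls near Hdac2 were 1 with the 8 arrays alone, quantile normalization, the replicate block or adjustment over all probe sets, 1 within 20 genes and 5 within 100, and those near Hdac1 15 within 100. Leaving out 1 array gave 678 to 1242 calls, 386 to 657 higher in the Hdac2 knockout and 292 to 585 higher in the Hdac1 knockout, 288 to 438 and 241 to 434 shared with the double knockout, 64 to 94 on chromosome 4, 44 to 63 on chromosome 10, 31 to 58 and 3 to 8 on the X chromosome, 6 to 8 near Hdac1 and 0 to 2 near Hdac2; 557 calls were kept in all 8 fits. The Hdac1 difference was 2.96 to 3.10 and the Hdac2 difference -0.16 to -0.12 without 1 array. Of the named genes 0 reversed. Of 34 list members named and called 15 kept their call in all 8 fits. A fit with 3 arrays in a group has fewer samples, and other causes were not tested.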
